A study of Homo sapiens with 38 samples.

Results

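Among 11893 genes measured in A549 cells, 46 had a higher level in ORMDL3 knockdown than in control cells. They did so at each of 5 time points of interleukin 1 beta (IL1B) treatment. Their level in control cells changed from 0 h by less than 0.6 on the log2 scale, a limit wider than the gap required. In TES the control change was -0.57 at 8 h, beside a mean knockdown difference of 0.52. A gene was taken when knockdown minus control was 0.25 or more on the log2 scale at 0, 2, 4, 8 and 10 h and when every later control hour lay within 0.6 of the control level at 0 h. A gene stood for the probe set with its highest overall mean. These 2 conditions were met by 53 genes, and 7 of them (HMGCS1, SMPD1, COL6A1, COL5A1, SLC22A4, SLC6A17 and ITGAX) were then dropped by name, along with the few other named genes and families that the selection leaves out. The differences themselves chose the 46 genes, so they are given below as descriptions without a test.

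A549 is an established human lung adenocarcinoma line. Knockdown cells had received a pool of siRNAs against ORMDL3, and the labels call the other arm only control, and the sources used here do not give what it was transfected with. Silencing lasted 48 h, serum was then withheld for 24 h, and IL1B was added at 1 ng/ml. Cells at 0 h were untreated, and time in culture and IL1B cannot be told apart at the later hours. Both arms had 19 arrays: 4 at each hour, except 3 in control at 8 h (no replicate 4) and 3 in knockdown at 0 h (no replicate 3). The design holds 1 cell line and 1 siRNA pool, so the line and the single siRNAs of the pool cannot be told apart from the effect of losing ORMDL3. Whether replicates came from separate cultures is unstated in the labels. The p-values then measure only how these samples spread, which may be technical.

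The ORMDL3 protein sits in the membrane of the endoplasmic reticulum and holds back serine palmitoyltransferase, with which sphingolipid synthesis begins. As background on the roles named below, matrix proteins are secreted and bind one another and cell receptors, membrane proteins hold cells to matrix and neighbours, and actin and microtubule binding proteins organise the cytoskeleton beneath. A glycosyltransferase adds sugars to such proteins as they pass through the Golgi. The 46 were sorted by known role, after they had been found, as a way to order the description, into 7 matrix and other secreted proteins, 2 glycosyltransferases, 10 adhesion and membrane proteins, 7 channels, receptors and G protein subunits, 10 cytoskeletal proteins, 4 proteins of membrane traffic and 6 nuclear and other proteins.

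Array medians of the deposited levels lay between 8.02 and 8.19. These levels were already processed, so their medians do not describe the signal before processing. ORMDL3 itself ranged from 6.78 to 7.77 over the control arrays and from 5.00 to 5.57 over the knockdown arrays, without overlap. The keratins KRT7, KRT8 and KRT18 marked epithelial cells at mean control levels of 12.4 to 13.0, and their knockdown minus control differences were 0.02, 0.01 and -0.01. Of the lung epithelial markers, KRT19 rose by 0.60 ± 0.04 (limma adjusted p = 1.15e-12) and EPCAM fell by 0.19 ± 0.06 (adjusted p = 0.034). Of 10 alveolar type 2 markers 3 were measured, and ABCA3 alone among them was called, higher by 0.27 ± 0.05. Of 7 alveolar type 1 markers 2 were measured, and CAV1 rose by 0.09 ± 0.03 (adjusted p = 0.0129) while RTKN2 fell by 0.28 ± 0.07 (adjusted p = 0.00323). The surfactant genes that define type 2 cells were not among the measured genes with 1 symbol.

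Promoter sequences were available for 35 of the 46 genes as 300-base windows, from 250 bases before to 50 bases after the annotated start (RefSeq, GRCh38.p14). The letters TGANTCA, which read the same on both strands and are a loose form of the core that AP-1 factors are known to bind, occurred in 8 of the 35 windows (22.9%). They occurred in 4.95% of the 9534 windows of measured genes and in 7.91% of all 27305 windows. Windows from 6 of these 8 genes are shown, with the motif in capitals, because the motif differed most in share from the measured genes among those searched:
DCLK1: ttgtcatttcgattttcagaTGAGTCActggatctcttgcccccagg
CPA4: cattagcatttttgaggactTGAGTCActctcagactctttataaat
KCNMA1: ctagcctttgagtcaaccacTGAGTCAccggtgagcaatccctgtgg
GXYLT2: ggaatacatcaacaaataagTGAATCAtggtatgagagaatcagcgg
EMP1: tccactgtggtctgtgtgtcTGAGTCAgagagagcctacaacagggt
RAB3B: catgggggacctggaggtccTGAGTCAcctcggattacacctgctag

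The DCLK1 stretch lies at chr13:35855865-35855911 on the minus strand, with the motif 224 bases before the start. Those of CPA4 (chr7:130293093-130293139, plus strand) and KCNMA1 (chr10:77350857-77350903, minus strand) hold it 48 and 122 bases before the start. Those of GXYLT2 (chr3:72887799-72887845, plus), EMP1 (chr12:13196531-13196577, plus) and RAB3B (chr1:51990793-51990839, minus) hold it 227, 175 and 119 bases before. DCLK1, CPA4, KCNMA1 and EMP1 carry the motif at 2 places each (the second of KCNMA1 stands in lower case in the stretch shown), and CLTRN and GNG2 are the other two genes with it. Of the other motifs, searched on both strands, GGGCGG occurred in 62.9% of the 35 windows against 69.1% of measured genes, and GGAATG in 8.57% against 10.8%. TATAAA occurred in 2.86% against 6.08%, TGACGTCA in 2.86% against 3.18%, and CACGTG in 0 of 35 against 9.79%. The median GC content was 65.7% in the 35 windows and 65.3% in those of the measured genes. A match describes the letters in a window and is no evidence of a bound site.

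Averaged over the 5 hours, knockdown minus control of the 46 genes lay between 0.30 (GPER1) and 0.72 (GALNT5), with a median of 0.49 beside -0.01 over all 11893 genes. The largest mean difference was a 1.65-fold higher level. In all, 20 genes had a mean difference of 0.5 or more and 10 a fold of 1.5 or more. The median by hour was 0.50 at 0 h, 0.50 at 2 h, 0.53 at 4 h, 0.51 at 8 h and 0.44 at 10 h, with a median SE of 0.12 to 0.13 for 1 gene at 1 hour. The selection required a gap at each hour, the untreated 0 h included. In bulk RNA, a change in the share of cells that express a gene and a change per cell cannot be told apart.

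**Figure D1:**
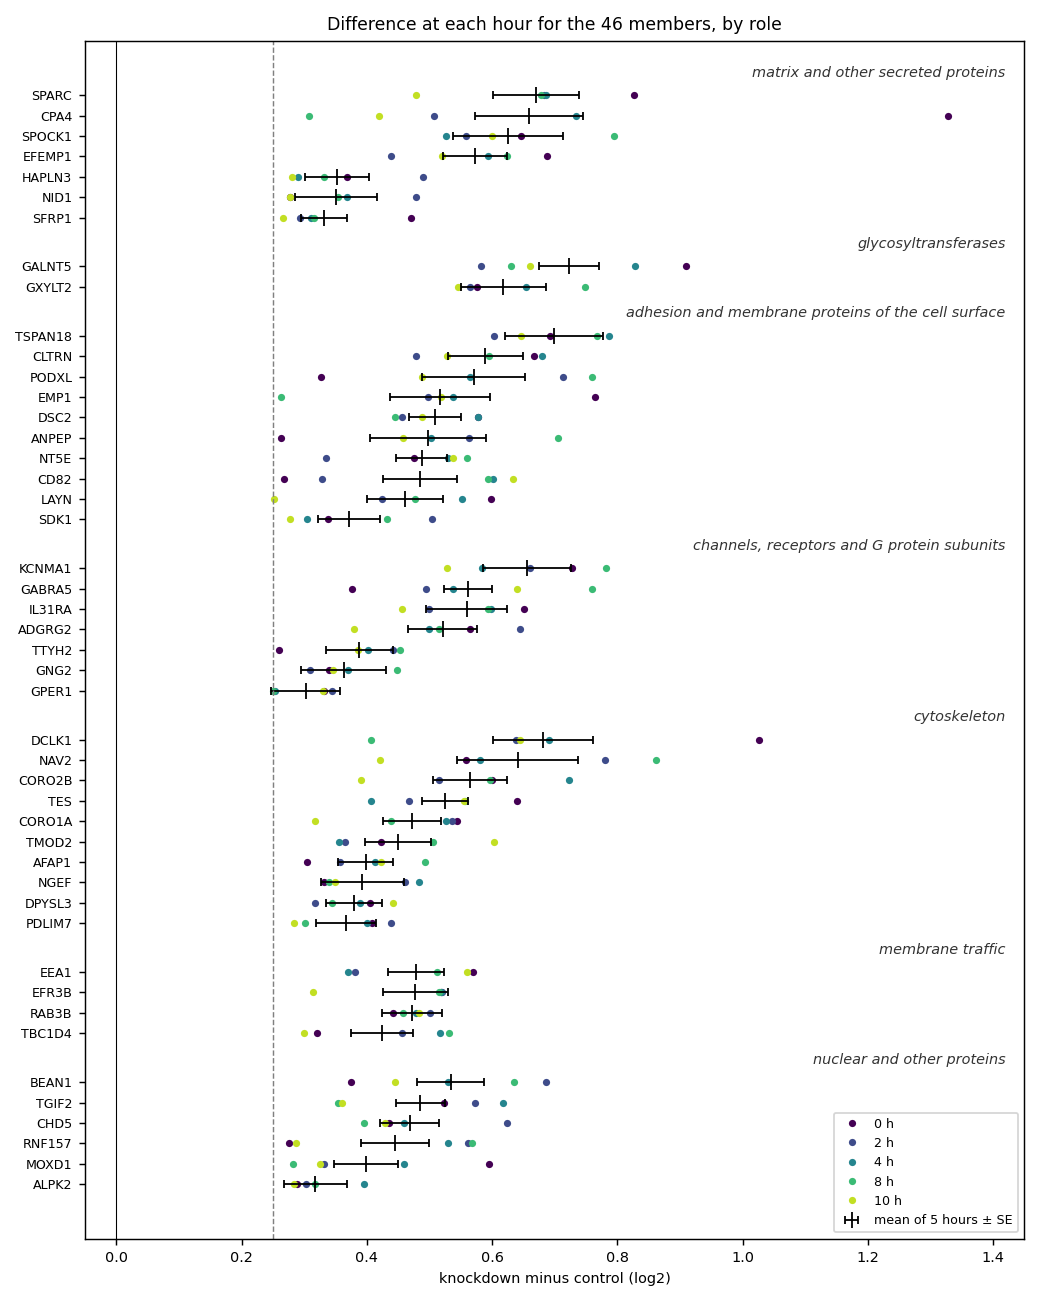
Knockdown minus control (log2) of each of the 46 genes, grouped by role, at 0, 2, 4, 8 and 10 h (coloured points) and as the mean of the 5 hours ± SE (black bars). The dashed line marks 0.25, the threshold that chose the genes. All points lie right of it, with CPA4 at 0 h (1.33) farthest out.

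The matrix group was led by SPARC, a collagen-binding matricellular protein. At 0 h its levels were 8.36, 7.65, 8.06 and 8.14 in the control arrays and 8.81, 8.72 and 9.10 in the knockdown arrays. At 10 h they were 8.34, 8.31, 8.24 and 8.59 against 8.94, 8.72, 8.61 and 9.11. The arms did not overlap at either hour, and the mean difference over the 5 hours was 0.67 ± 0.07 (SE). EFEMP1, an extracellular fibulin, stood at 9.15, 8.77, 8.73 and 9.17 in control and at 9.71, 9.59 and 9.62 in knockdown at 0 h. By 10 h it had declined in both arms, to 8.43, 8.23, 8.29 and 8.58 against 8.96, 8.83, 8.80 and 9.02, with the knockdown arrays again all higher (mean difference 0.57 ± 0.05).

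CPA4, a secreted carboxypeptidase, had the widest gap of any member at a single hour. Its 0 h levels were 5.19, 4.74, 5.11 and 4.97 in control and 6.70, 5.91 and 6.38 in knockdown, a difference of 1.33 ± 0.20. At 10 h they were 5.35, 4.80, 4.82 and 4.87 against 5.64, 5.31, 5.09 and 5.48, and the arms overlapped. The proteoglycan SPOCK1 ranged from 7.15 to 8.17 over the control arrays of all hours (median 7.63) and from 7.98 to 8.83 over the knockdown arrays (median 8.24), with a mean difference of 0.63 ± 0.09. Smaller differences belonged to HAPLN3, which links hyaluronan to proteoglycans (0.35 ± 0.05), the basement membrane protein NID1 (0.35 ± 0.07) and the secreted Wnt antagonist SFRP1 (0.33 ± 0.04).

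GALNT5, which starts mucin-type O-glycans by adding N-acetylgalactosamine, had the largest mean difference of all 46 genes. Its 0 h levels were 6.99, 7.38, 7.14 and 7.07 in control and 8.09, 7.96 and 8.11 in knockdown. At 8 h they were 6.80, 6.56 and 6.73 in control and 7.37, 7.47, 7.12 and 7.34 in knockdown. The arms were apart at every hour, and the mean difference was 0.72 ± 0.05. GXYLT2, which adds xylose to O-glucose on epidermal growth factor repeats such as those of Notch, ranged from 6.96 to 7.85 (median 7.43) over the control arrays and from 7.34 to 8.37 (median 8.02) over the knockdown arrays. Its mean difference was 0.62 ± 0.07, and its arms also did not overlap within any hour.

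The surface proteins had a median difference of 0.50. TSPAN18, a tetraspanin, read 6.89, 6.89, 7.13 and 7.36 in control and 7.70, 7.80 and 7.79 in knockdown at 0 h. At 4 h both arms were higher, at 7.27, 7.10, 7.39 and 7.94 against 8.19, 7.93, 8.18 and 8.55, and replicate 4 of control overlapped the knockdown arrays. Its mean difference was 0.70 ± 0.08. PODXL, a sialomucin, showed the same replicate standing out: at 2 h its levels were 9.24, 9.37, 9.39 and 9.90 in control and 10.14, 10.02, 10.04 and 10.55 in knockdown (mean difference over 5 hours 0.57 ± 0.08). CLTRN, a partner of amino acid transporters, ranged from 6.41 to 7.06 in control and from 7.05 to 7.91 in knockdown over all hours, and its arms were apart at each hour (0.59 ± 0.06).

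NT5E (CD73), the ectoenzyme that makes adenosine from AMP, had levels of 9.42, 9.26, 9.33 and 9.30 in control and 9.80, 9.75, 9.88 and 10.02 in knockdown at 10 h, and a mean difference of 0.49 ± 0.04. DSC2, a desmosomal cadherin, was apart at every hour, with control arrays from 7.33 to 8.00 and knockdown arrays from 7.75 to 8.38 over all hours (0.51 ± 0.04). The tetraspanin CD82 read 7.72, 7.34, 7.41 and 7.36 against 7.70, 7.59 and 7.89 at 0 h, where the arms overlapped. At 10 h it read 7.70, 7.59, 7.35 and 7.54 against 8.35, 7.80, 7.97 and 8.58, where they did not (mean difference 0.48 ± 0.06). The remaining surface proteins were EMP1 (0.52 ± 0.08), the aminopeptidase ANPEP (0.50 ± 0.09), the hyaluronan receptor LAYN (0.46 ± 0.06) and the immunoglobulin-type adhesion molecule SDK1 (0.37 ± 0.05).

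**Figure D2:**
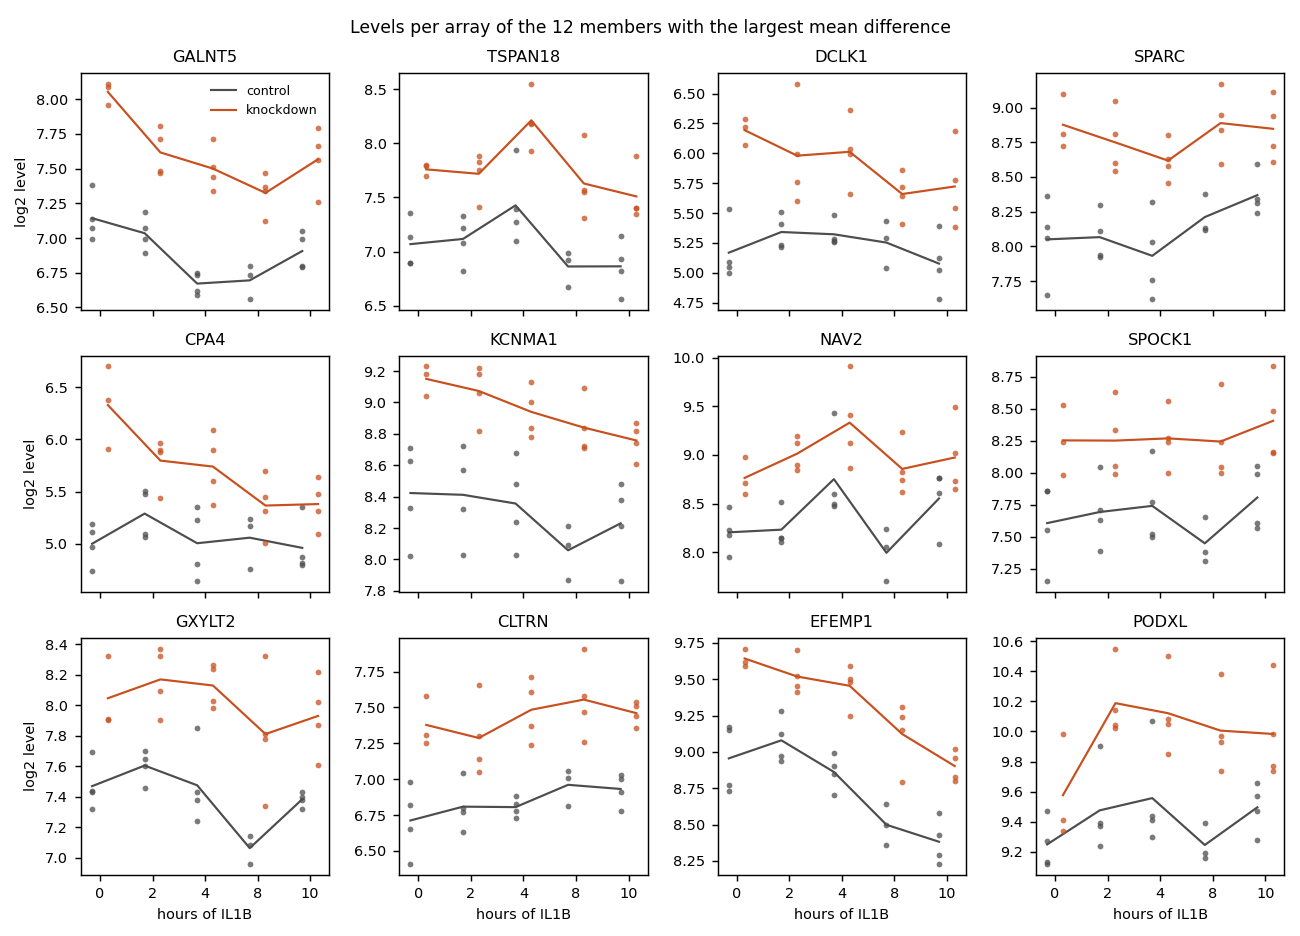
Log2 level of the 12 genes with the largest mean difference on every array (points) against hours of IL1B, with lines through the group means, control in grey and knockdown in orange. The vertical axes differ between panels and do not start at 0. The knockdown line lies above the control line at every hour in each panel, and in the CPA4 panel the lines approach each other from a difference of 1.33 at 0 h to 0.42 at 10 h.

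Of the channels and receptors, GABRA5, a subunit of GABA-A receptors, was the one member whose knockdown arrays of all hours lay above its control arrays of all hours. Control arrays ranged from 9.79 to 10.32 (median 10.06) and knockdown arrays from 10.35 to 10.83 (median 10.62), with a mean difference of 0.56 ± 0.04. Among all genes 2 met this description (0.0168%). KCNMA1, the pore subunit of the large-conductance calcium-activated potassium channel, read 8.63, 8.02, 8.33 and 8.71 in control and 9.18, 9.04 and 9.23 in knockdown at 0 h. At 8 h it read 8.21, 7.87 and 8.09 against 8.71, 8.72, 8.84 and 9.09, and it was apart at every hour (0.66 ± 0.07).

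The cytokine receptor subunit IL31RA (0.56 ± 0.06) and the adhesion G protein-coupled receptor ADGRG2 (0.52 ± 0.05) were apart at every hour too. TTYH2, a membrane protein of the tweety family, had a mean difference of 0.39 ± 0.05 and the G protein subunit GNG2 one of 0.36 ± 0.07. GPER1, a G protein-coupled estrogen receptor, had the smallest. Its levels at 8 h, the hour of its narrowest gap, were 5.99, 5.79 and 6.03 in control and 6.41, 5.99, 6.15 and 6.20 in knockdown, which overlapped.

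DCLK1, a microtubule-binding kinase, led the cytoskeletal group, at a low overall mean level of 5.57. At 0 h it read 5.00, 5.05, 5.53 and 5.09 in control and 6.29, 6.22 and 6.07 in knockdown, and at 8 h 5.04, 5.29 and 5.43 against 5.64, 5.72, 5.41 and 5.86. The gap was 1.03 ± 0.19 at 0 h and 0.41 ± 0.19 at 8 h, where 1 knockdown array fell into the control range. NAV2, another microtubule-associated protein, ranged from 7.70 to 9.43 in control and from 8.60 to 9.91 in knockdown over all hours (0.64 ± 0.10). It had the largest difference of the 46 genes at 2 h (0.78 ± 0.21) and at 8 h (0.86 ± 0.22). Control at 8 h lacked replicate 4. With the replicate number added to the model NAV2 differed by 0.738 at 8 h, below GABRA5 with 0.742. Without all arrays numbered 4 the values were 0.733 and 0.742.

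TES, a LIM protein of focal adhesions, ranged from 9.57 to 10.54 in control and from 10.09 to 11.05 in knockdown, and was apart at every hour (0.52 ± 0.04). So was the coronin CORO2B (0.57 ± 0.06), which binds actin, while the coronin CORO1A differed by 0.47 ± 0.05. The other cytoskeletal members had smaller values: TMOD2, which caps actin filaments (0.45 ± 0.05), AFAP1, an actin filament partner of Src (0.40 ± 0.04), NGEF (0.39 ± 0.07), DPYSL3 (0.38 ± 0.04) and the PDZ and LIM protein PDLIM7 (0.37 ± 0.05).

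In membrane traffic, RAB3B, a GTPase of regulated exocytosis, kept the most even gap, with differences between 0.44 and 0.50 at the 5 hours. Its 0 h levels were 9.10, 9.45, 9.43 and 9.28 in control and 9.81, 9.76 and 9.70 in knockdown. At 10 h both arms were higher, at 9.73, 9.62, 9.57 and 9.66 against 10.36, 10.09, 9.81 and 10.26. RAB3B (0.47 ± 0.05), the early endosome tether EEA1 (0.48 ± 0.04) and EFR3B, which anchors a phosphatidylinositol kinase at the plasma membrane (0.48 ± 0.05), were apart at each hour. TBC1D4, a Rab GTPase-activating protein, differed by 0.42 ± 0.05.

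Of the nuclear and other proteins, the homeobox repressor TGIF2 read 7.26, 7.34, 7.45 and 7.19 in control and 7.83, 7.83 and 7.84 in knockdown at 0 h. It was apart at all 5 hours (0.49 ± 0.04), as was the chromatin remodeller CHD5 (0.47 ± 0.05), whose control arrays ranged from 5.04 to 5.53 and knockdown arrays from 5.40 to 6.16. BEAN1 differed by 0.53 ± 0.05, the ubiquitin ligase RNF157 by 0.44 ± 0.05, MOXD1, a copper monooxygenase homologue, by 0.40 ± 0.05, and the kinase ALPK2 by 0.32 ± 0.05.

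Array by array, every knockdown array lay above every control array in 35 of the 46 genes at 0 h (8.91% of all genes did), 37 at 2 h (6.26%), 34 at 4 h (3.56%), 37 at 8 h (6.59%) and 32 at 10 h (3.81%). At all 5 hours this held for 17 of the 46 (0.378% of all genes). They were GALNT5, SPARC, KCNMA1, GXYLT2, CLTRN, EFEMP1, CORO2B, GABRA5, IL31RA, TES, ADGRG2, DSC2, TGIF2, EEA1, EFR3B, RAB3B and CHD5. ANPEP, GNG2 and NID1 were apart at 1 hour only. In limma with Benjamini-Hochberg adjustment over 14488 probe sets, 29 genes were called higher at 0 h (background 2.33%), 37 at 2 h (3.11%), 32 at 4 h (1.11%), 32 at 8 h (1.62%) and 19 at 10 h (1.09%). At each of the 5 hours 13 were called (0.207%), and for the mean of the hours all 46 were (10.9%). The selection used these same differences, and nothing is read from the counts.

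The threshold cut through a dense range. The narrowest gaps inside it were those of GPER1 (0.2504 at 8 h), LAYN (0.252 at 10 h), TTYH2 (0.259 at 0 h) and ANPEP (0.262 at 0 h). Just outside were PYGB (0.247), CEP85L (0.245), ARL6IP5 (0.245) and SYT13 (0.243). The smallest hourly difference was under 0.30 in 15 of the 46 genes and at least 0.40 in 14. On the limit for control cells, EFEMP1 (0.574), TES (0.573) and RNF157 (0.565) were just inside, and AXL (0.609), SFXN3 (0.613) and FBN1 (0.621) just outside. Beside the 53 genes that met both conditions, 37 were higher by 0.25 or more at every hour but passed the limit in control cells, 7 of them with names that the selection drops. In all, 90 genes (0.757%) were higher by that much at every hour. The mirrored selection found 41 genes lower at every hour.

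The gap between the arms was narrower at 10 h than at 0 h in 32 of the 46 genes and wider in 14. Knockdown at 0 h lacked replicate 3. With the replicate number added to the model the median was 0.470 at 0 h and 0.435 at 10 h. In that fit SPOCK1, EEA1, CHD5, NID1 and GPER1 were wider at 10 h instead, and RNF157 narrower. No share over all genes is given beside these counts. Of the 46, 17 had their smallest difference at 10 h. The strongest narrowing was that of CPA4, from 1.33 to 0.42 (a change of -0.91 ± 0.27), followed by DCLK1 (-0.38 ± 0.25), SPARC (-0.35 ± 0.22) and LAYN (-0.35 ± 0.19). The strongest widening was that of CD82, from 0.27 to 0.63 (0.36 ± 0.19), and of GABRA5, from 0.38 to 0.64 (0.26 ± 0.12). Apart from CPA4 and GABRA5, these changes were less than 2 of their standard errors. At 2, 4 and 8 h the genes were split more evenly, with 24, 22 and 24 of 46 below their difference at 0 h.

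**Figure D3:**
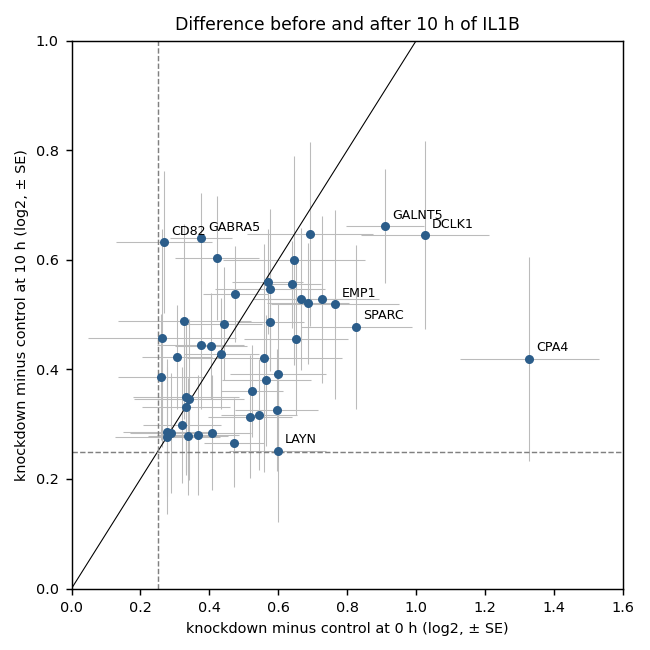
Knockdown minus control at 10 h against that at 0 h (log2, ± SE) for the 46 genes, with the line of equal values and the threshold of 0.25 on each axis (dashed). Below the line of equal values lie 32 genes, CPA4 farthest from it (1.33 at 0 h, 0.42 at 10 h), and CD82 and GABRA5 lie above it.

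The selection set a limit only on the change over time in control cells. Together with the gap required at each hour, that limit also bounded the changes in knockdown cells, so they are descriptions. In knockdown cells a change of 0.6 or more in size from 0 h occurred in 2 genes at 2 h, 0 at 4 h, 4 at 8 h and 3 at 10 h. PODXL was higher at 2 h than at 0 h by 0.61 ± 0.19 (0.23 ± 0.18 in control), and EMP1 changed by -0.70 ± 0.19 (-0.44 ± 0.17 in control). CPA4 changed by -0.96 ± 0.20 at 8 h and by -0.95 ± 0.20 at 10 h in knockdown, beside 0.06 ± 0.20 and -0.04 ± 0.19 in control. The other three at 8 h were GALNT5 (-0.73 ± 0.11, and -0.45 ± 0.11 in control), TES (-0.66 ± 0.09, and -0.57 ± 0.09 in control) and CD82, which was higher (0.60 ± 0.14, and 0.28 ± 0.14 in control). EFEMP1 changed by -0.74 ± 0.12 at 10 h in knockdown and by -0.57 ± 0.11 in control, and EMP1 by -0.76 ± 0.19 in knockdown and -0.51 ± 0.17 in control. These comparisons share the 0 h arrays of their arm.

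AFAP1 and BEAN1 had a second probe set that the selection did not use, and neither was called. For AFAP1 the other probe set, at a mean level of 5.84 where the chosen one stood at 9.49, differed by 0.07 ± 0.04 (limma adjusted p = 0.225). For BEAN1 the other stood at 5.11 beside 8.09 and differed by -0.03 ± 0.10 (adjusted p = 0.846). Both were the dimmer of their pair, and the remaining 44 genes had 1 probe set each.

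The replicate number moved with the 46 genes in both arms. The deviation of an array from its group mean, averaged over the 46 genes, was 0.126 for arrays numbered 4, 0.022 for number 1, -0.061 for number 3 and -0.080 for number 2. All 9 arrays numbered 4 lay above their group mean, by 0.058 to 0.187. The mean level of small nucleolar RNA probe sets deviated by -0.131 for number 4 and 0.120 for number 2, and at 0 h it was 7.10 ± 0.18 (SD, n = 4) in control and 7.45 ± 0.09 (SD, n = 3) in knockdown. Without the arrays numbered 4 the medians of the 46 genes at 0, 2, 4, 8 and 10 h were 0.467, 0.455, 0.540, 0.448 and 0.377. With the replicate number added to the model they were 0.470, 0.497, 0.527, 0.469 and 0.435. Only 0 and 8 h, the hours with a missing array, then differed from the main fit. With that small nucleolar RNA level added to the model, their median over the 5 hours was 0.488. All 46 stayed above 0 at every hour in each of these settings. They had been chosen for a gap at every hour on these same arrays, so nothing is read from that count.

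**Figure D4:**
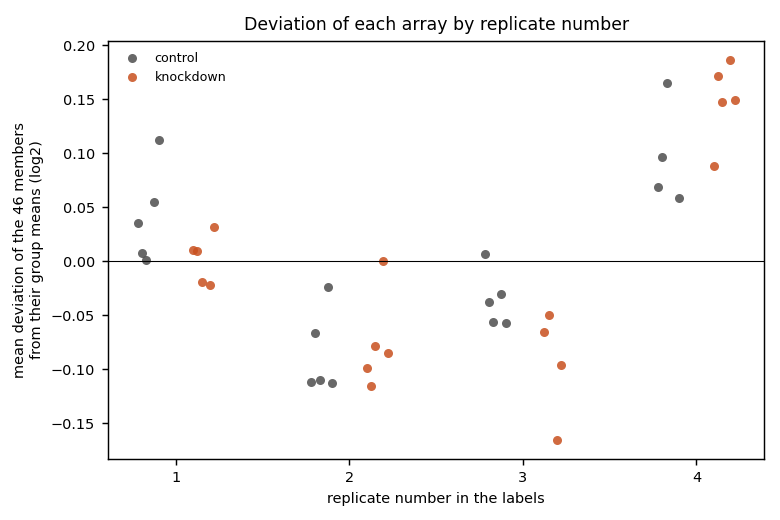
Deviation of each of the 38 arrays from its group mean, averaged over the 46 genes (log2), by the replicate number in the labels, with control in grey and knockdown in orange. The 9 arrays numbered 4 all lie above 0, between 0.058 and 0.187, and those numbered 2 lie below it, but for 1 knockdown array on the line.

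Within groups the 46 genes varied together to different degrees. Over the 38 arrays, as deviations from group means, the median Pearson correlation of the 1035 pairs of members was 0.28, with 82.9% of pairs above 0, beside 0.022 over all gene pairs. With the mean of each replicate number removed as well it was 0.107 beside 0.027. The closest pair was that of the matrix proteins SPARC and SPOCK1 (r = 0.91, Spearman correlation 0.90, and r = 0.90 without the 2 farthest arrays). PODXL followed with NAV2 (r = 0.87, Spearman correlation 0.83, and 0.82 without the 2 farthest) and with SDK1 (r = 0.87, Spearman correlation 0.72, and 0.83). ALPK2 ran against the others, with a median r of -0.26, and TGIF2 had a median r of 0.00. The arrays of a number are shared by all pairs, so these values are descriptions without a p.

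**Figure D5:**
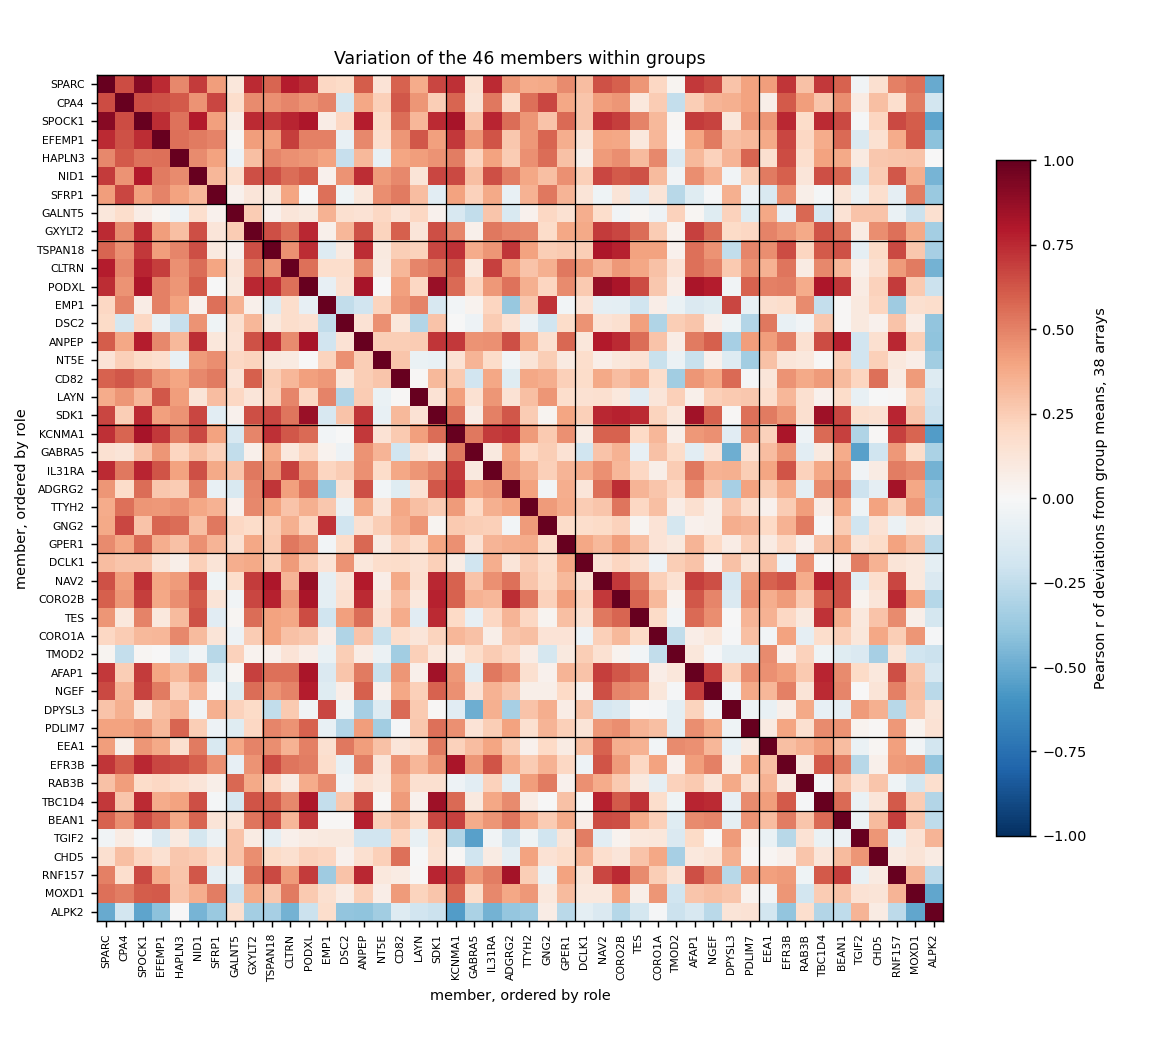
Pearson correlation of each pair of the 46 genes over the deviations of 38 arrays from their group means (blue below 0, red above 0), with genes ordered by role and lines between roles. SPARC and SPOCK1 form the darkest pair outside the diagonal (0.91), and the ALPK2 row is mostly blue.

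Gene lists of related pathways, 22 in all, were counted for the mean of the 5 hours, where limma called 11.8% of all genes higher and 13.2% lower. Of all 11893 genes these were 1401 and 1573. At an unadjusted p under 0.05 limma gave 1981 higher and 2368 lower of all genes. Without the arrays numbered 4 it called 1133 higher and 1247 lower. On at least 1 of these lists stood 9 of the 46 genes (19.6%) and 579 of all 11893 genes (4.87%). The lists were chosen with these results known, so the shares are descriptions. Of 33 matrix and matricellular proteins 16 were called higher and 6 lower (median 0.11). SPARC, SPOCK1, EFEMP1 and NID1, 4 of the 16, are among the 46, and FBN1, a component of microfibrils, was next with 0.43 ± 0.05. Of 37 genes for actin, myosin and focal adhesions 18 were called higher and 0 lower (median 0.09), led by PDLIM7, LMO7 (0.31 ± 0.03), the adhesion adaptor PXN (0.30 ± 0.06) and vinculin, VCL (0.26 ± 0.04). At an unadjusted p under 0.05, limma gave 23 higher and 0 lower in that list, beside 1981 and 2368 of all 11893 genes. The fits with a replicate block, with array medians subtracted and with quantile normalization also gave 0 lower in that list.

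Of 15 mesenchymal transition markers 7 were called higher and 0 lower (8 and 0 at an unadjusted p under 0.05; 5 and 0 without the arrays numbered 4). They included AXL, a receptor tyrosine kinase (0.61 ± 0.06), MMP2 (0.25 ± 0.07) and vimentin, VIM (0.21 ± 0.03). Of 28 YAP and TEAD targets 11 were called higher, NT5E, AXL and CCN2 (0.34 ± 0.05) among them, and 1 lower (median 0.06). Of 35 adhesion and junction genes 7 were higher and 3 lower (median 0.04), with DSC2 at the top and MCAM at -0.41 ± 0.04. Of 25 genes of mucin-type O-glycosylation 6 were higher and 1 lower (median 0.04): GALNT5 stood far from the next, GALNT2 with 0.24 ± 0.03 and ST6GALNAC2 with 0.23 ± 0.06. Of 23 matrix proteases and inhibitors 6 were higher, led by the plasminogen activator PLAT (0.47 ± 0.06), and 2 lower.

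In the lists of signalling, the counts called higher and lower were 7 and 2 of 29 for TGF beta, 12 and 5 of 38 for receptor tyrosine kinases and ligands, and 5 and 3 of 32 for Wnt and Notch, where SFRP1 led. For cholesterol synthesis and uptake they were 12 and 0 of 20, for sphingolipid synthesis and turnover 4 and 8 of 32, and for hypoxia and glycolysis 6 and 2 of 26. For kelch-like adaptors they were 4 and 3 of 22, for keratins and epithelial markers 2 and 2 of 13, for p53 targets 4 and 2 of 22, and for mitosis and replication 2 and 4 of 34. Interferon-stimulated genes (1 and 12 of 31), cytokines and chemokines (2 and 10 of 23), the ATF4 response (2 and 7 of 29), the unfolded protein response (2 and 7 of 27) and NRF2 targets (0 and 4 of 21) had more genes called lower. At an unadjusted p under 0.05 limma gave 13 and 0 for cholesterol and 0 and 5 for NRF2 targets. Without the arrays numbered 4 fewer of all genes were called, 1133 higher and 1247 lower beside 1401 and 1573 with all arrays. List counts that then moved by over 1.5 times were those of receptor tyrosine kinases (12 and 3), Wnt and Notch (5 and 1) and proteases (7 and 1). So did those of mitosis (1 and 3), the unfolded protein response (0 and 4) and interferon-stimulated genes (0 and 10).

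Markers of other cell types were set beside the 46 genes. Of 8 fibroblast markers 2 were measured, COL1A1 (0.10 ± 0.05, adjusted p = 0.129) and THY1 (0.06 ± 0.04, adjusted p = 0.312), and neither was called. Their mean per array ranged from 6.13 to 6.86 in control and from 6.35 to 7.04 in knockdown. Of 6 endothelial markers CDH5 alone was measured, from 4.90 to 6.78 in control and from 5.01 to 7.04 in knockdown (0.07 ± 0.05, adjusted p = 0.384). Of 8 leukocyte markers 3 were measured, and CD68 rose by 0.14 ± 0.04 (adjusted p = 0.00605), while CD14 (-0.02 ± 0.07) and ITGAM (0.07 ± 0.04) were not called. The mean of those 3 per array ranged from 7.88 to 8.39 in control and from 8.09 to 8.36 in knockdown. With so few markers measured, the part of other cells in the differences was not tested.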

How the data were processed

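Expression was measured on Affymetrix arrays of total RNA, 38 in all. The authors deposited log2 levels of 14488 probe sets. For their making, the submitters' processing notes list RMA, Affymetrix Power Tools, limma 3.22.7 and hg19, with no role or order, and the choice of probe sets is not stated there. Gene names come from the annotation of the platform: 12132 probe sets had 1 symbol, 628 several and 1728 none, and 12121 matched a gene record by Entrez identifier. The number of arrays limits the precision.

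All arrays entered 1 limma 3.58.1 fit (R 4.3.3, lmFit and eBayes) with a mean per group for 10 groups, with Benjamini-Hochberg adjustment over all probe sets per contrast and a threshold of 0.05. It was also run on simulated data with independent noise on each array and no effect of the replicate number. That run cannot check the standard errors where arrays of a number deviate together. Errors are standard errors of the model unless given as SD. Motifs, counts and correlations were computed in Python 3.11.15 (pandas 2.3.3, NumPy 2.4.6). The 46 genes and the gene lists were chosen with earlier results of these data known, and the roles were assigned after the genes were found.

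Any of the 46 genes could be named with its mean difference. Array values were given for the 12 largest mean differences, for the largest at an hour and for up to 3 genes per role. Beyond them, the genes named were those nearest both thresholds, up to 4 per list, those with a second probe set, the extremes of narrowing and widening, and the closest pairs. Alternatives changed the thresholds, the probe set rule, the normalization, the dim probe sets, the model and the arrays used. The siRNA sequences are not analysed here.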

Additional observations from a re-analysis of the deposited data

Results flagged for a closer look

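In 22 of 376 groups of 4 arrays, over the 46 genes and ORMDL3, the highest or lowest array stood apart from the other three by Dixon's criterion, which chance alone meets in about 1 group in 20. Replicate 4 was such an array for ANPEP in control at 0 h (9.07, the others 8.60 to 8.68), TBC1D4 in control at 2 h (8.66, others 8.43 to 8.46) and NAV2 in control at 2 h (8.52, others 8.11 to 8.15) and 4 h (9.43, others 8.47 to 8.60). It was so too for PDLIM7 in knockdown at 4 h (8.90, others 8.58 to 8.62), NGEF in knockdown at 8 h (6.82, others 6.34 to 6.40) and TSPAN18 in knockdown at 10 h (7.88, others 7.35 to 7.40). In each of these 7 cases it was the highest of its group.

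Replicate 2 stood apart at control 4 h in 4 genes: DSC2 (8.00, highest) and DCLK1 (5.48, highest), HAPLN3 (7.49, lowest) and LAYN (5.79, lowest). It also did so for DSC2 in control at 0 h (7.47, lowest), IL31RA in knockdown at 4 h (6.00, lowest) and ORMDL3 in control at 2 h (7.38, highest). Replicate 3 was the lowest for SFRP1 in knockdown at 10 h (9.42), CD82 (8.15) and TTYH2 (7.33) in knockdown at 4 h and GNG2 in knockdown at 8 h (5.75), and the highest for TGIF2 in control at 4 h (7.25). Replicate 1 was the highest for SFRP1 in control at 4 h (9.16) and CPA4 in control at 10 h (5.35), and the lowest for TGIF2 in control at 2 h (7.46).

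In 2 of 184 comparisons of a later hour with 0 h, every array of one arm moved one way and every array of the other the opposite way, relative to the 0 h mean of its arm. GABRA5 at 8 h had a change of -0.20 in control and 0.18 in knockdown, and CPA4 at 2 h one of 0.29 in control and -0.53 in knockdown. The difference between the arms was not tested in either case.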

How the results depend on the processing

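The number of genes that met the selection followed its thresholds. In each setting the genes were chosen on the same differences that limma then called, so nothing is read from the counts called. In the main fit 11.8% of all genes were called higher for the mean of 5 hours. With a difference of 0.20 or more per hour 79 genes met it, all 79 called by limma for the mean of 5 hours, and with 0.30 there were 31. With probe sets below the overall median left out there were 19, all 19 called, since 27 of the 46 genes lie below that median. Leaving out single arrays gave 37 to 50 genes, as many of them called, with a median difference of 0.471 to 0.503, and the fewest without knockdown 0 h replicate 4, where 36 of the 46 remained. With quantile normalization there were 41 (38 of the 46), with array weights 41 (35), with the small nucleolar RNA covariate 49 (40) and without all arrays numbered 4 37 (30). Averaging the probe sets of a gene took AFAP1 to 0.23 and BEAN1 to 0.25 and left 44. Of the 46, the same 22 met the selection in all 38 fits without 1 array, while single fits kept 36 to 46. GPER1 met it in 30 of the 38. No difference of the 46 genes changed sign in any setting in which they were measured. The same differences had chosen the genes, so nothing is read from this either.

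Groups share replicate numbers in the labels. As deviations from group means over all probe sets, same-numbered arrays of the arms correlated by -0.217 to 0.576 (median 0.153). For other numbers the median was -0.020. Deviations sum to 0 within a group, so that value is no independent baseline. Of the 18 same-numbered pairs 11 were above 0.1: 3 of 3 at 0 h, 0 of 3 at 8 h, and 4 of 4 for number 4. The main fit did not pair the samples by number, a choice that these correlations do not settle. A shared effect of the number was not tested, and the standard errors and p-values given here come from the fit without it. With the replicate block 45 genes met the selection, 42 of them among the 46, with a median difference of 0.484. Limma called all 45, and 1608 of all 11893 genes, higher in that fit, and nothing is read from that count either. With the number as a random block there were 46 genes, 44 of them the same.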
